A study of Drosophila melanogaster with 4 samples.

Results

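The 27 genes described here are serine protease genes of the Drosophila melanogaster midgut: the 16 Jonah genes and the 11 trypsins with a Greek letter name, found by symbol among the 13585 gene IDs of the deposited table. All 27 were matched by ID. Poly(A) RNA from midguts was sequenced in 4 libraries, with 1 library for each of 4 groups. The groups were flies with no treatment and flies given uracil, a base of RNA that bacteria can release into the gut, each sampled after 2 h and after 16 h. No allele or transgene is named for any group, and the strain, sex and age of the flies, the uracil dose and the number of guts in a library were not given in the sources used here. Between 8500378 and 16588143 reads per library fell in genes. A difference between single libraries has no test, and the 95% intervals beside ratios (exact, Clopper-Pearson) cover counting error only. In RNA of a whole tissue, fewer cells of a type and less RNA per cell cannot be told apart.

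Jonah proteins and trypsins are digestive enzymes that enterocytes, the absorptive cells of the midgut, secrete into the gut lumen. They belong to the family of vertebrate trypsin and chymotrypsin, are made as inactive precursors and cut dietary protein with an active-site serine. Trypsins cut after lysine or arginine, and most Jonah proteins resemble chymotrypsins in sequence. The genes lie in tandem clusters, and digestive enzymes of the fly are known to be made in particular regions along the midgut.

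The proteases were abundant in every library. They took 5.55% of the reads in genes in untreated guts at 2 h (5.537 to 5.567) and 2.88% at 16 h (2.876 to 2.892). With uracil they took 5% at 2 h (4.986 to 5.014) and 3.72% at 16 h (3.712 to 3.737). Both 2 h libraries thus had a higher share than both 16 h libraries. Jonah genes held 1.79% to 3.66% and trypsins 1.09% to 1.89%, while 222 other serine protease genes together held 1.64% to 2.4%.

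Levels within the families differed widely. Levels of different genes are compared as normalized counts (the deposited unit, gene reads divided by 1 factor per library) per kb of exon, averaged over the 4 libraries. Jon65Aiv had the highest level at 7482 per kb, followed by alphaTry at 6620, Jon65Aiii at 5807 and betaTry at 5224. These genes held the first 4 ranks in every library, but alphaTry passed Jon65Aiv, and betaTry passed Jon65Aiii, with uracil at 16 h. From epsilonTry at 3435 the levels went down through Jon25Biii (3130), Jon74E (2669) and thetaTry (817) to etaTry (103). The lowest levels above 0 were those of Jon65Aii (72.8), iotaTry (60.1), zetaTry (52.2), deltaTry (12.4) and Jon66Cii (4.67). The level of deltaTry may leave out reads that it shares with its near-identical copy gammaTry. Jon25Bi (1363) and Jon99Fi (1362) had nearly equal means, although Jon25Bi ranked higher in both 2 h libraries and Jon99Fi in both 16 h libraries.

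**Figure D1:**
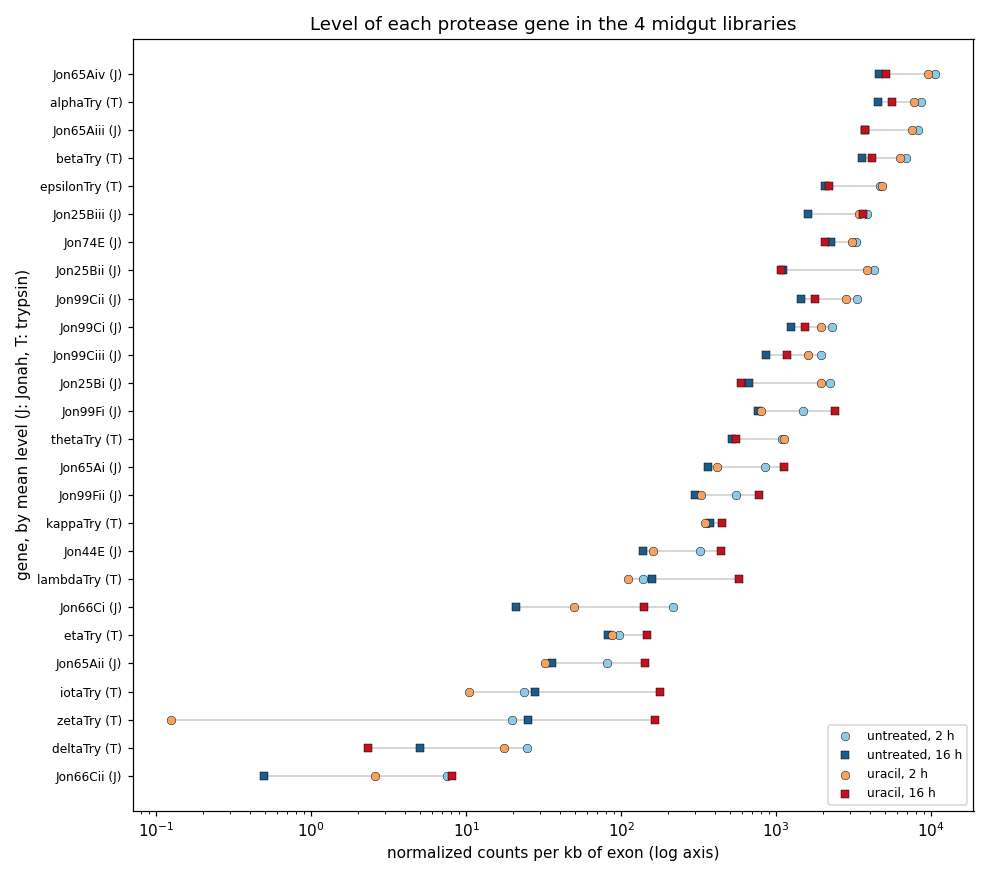
Level of the 26 protease genes with reads, as normalized counts per kb of exon on a log axis, with 1 point per library (circles 2 h, squares 16 h; light and dark blue untreated, orange and red uracil) and genes ordered by mean level. In most of the abundant genes at the top the circles lie to the right of the squares, while in many genes further down the red square lies farthest right, and zetaTry reaches from 0.125 with uracil at 2 h to 164 with uracil at 16 h.

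At 2 h nearly all of the proteases stood lower with uracil than without it, the abundant ones by little. Measured genes are those with a mean of 1 CPM (reads scaled to a common library total) or more, 26 of the 27. Of these, 24 had a log2 ratio below 0, all 16 Jonah genes among them, 6 were 2-fold lower or more, and 0 were 2-fold higher. Among the 8560 genes measured in all, 1.51% were lower and 1.5% higher by this rule (3% in either direction). The median log2 ratio was -0.26 for Jonah genes and -0.15 for trypsins, against 0.01 for all genes. Log2 ratios and 2-fold counts were taken after adding 1.02 to each normalized count, which understates the difference of low genes, while a ratio given as a fold is that of the normalized counts themselves.

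Of the 6 genes, 4 are Jonah genes. Jon66Ci was at 180 normalized counts without and 41.7 with uracil at 2 h (4.32-fold lower, 3.84 to 4.87). Its neighbour Jon66Cii was at 6.21 and 2.13 (2.92-fold lower, 1.67 to 5.33), from 49 and 18 reads. Jon65Aii was at 67.3 and 26.9 (2.5-fold lower, 2.14 to 2.93), and Jon65Ai at 803 and 392 (2.05-fold lower, 1.96 to 2.14). The other two are trypsins. In iotaTry the values were 19.4 and 8.51 (2.28-fold lower, 1.71 to 3.06). In zetaTry they were 18.5 and 0.118, which is 146 reads against 1 read (157-fold lower, 27.7 to 6231).

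Just short of the limit lay Jon44E, at 448 without and 224 with uracil, and then Jon99Fi, at 1384 and 739 (1.87-fold lower), and Jon99Fii, at 505 and 297 (1.7-fold lower). The 4 most abundant genes differed much less. Jon65Aiv was at 9612 and 8674 (ratio 0.902, 0.893 to 0.912), alphaTry at 7390 and 6662 (0.901, 0.891 to 0.912), Jon65Aiii at 7177 and 6621 (0.922, 0.912 to 0.933) and betaTry at 7383 and 6758 (0.915, 0.905 to 0.926). Only thetaTry (1133 and 1175) and epsilonTry (3885 and 3993) stood higher with uracil at 2 h.

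At 16 h the same contrast lay on the other side. Of the 26 genes 22 had a log2 ratio above 0, 11 stood higher with uracil by 2-fold or more, and 0 lower. Among all genes 7.66% were higher and 0.993% lower by that rule (8.66% in either direction). The median log2 ratio was 0.82 for Jonah genes and 0.27 for trypsins, against -0.02 for all genes, and the Jonah median was 0.47 over genes with a mean of 10 CPM or more. The 11 genes were Jon25Biii, Jon44E, Jon65Ai, Jon65Aii, Jon66Ci, Jon66Cii, Jon99Fi and Jon99Fii, and the trypsins lambdaTry, zetaTry and iotaTry.

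Jon66Ci was at 17.5 without and 118 with uracil at 16 h (6.73-fold higher, 5.92 to 7.68), and Jon66Cii at 0.409 and 6.76 (16.5-fold, 7.56 to 42.9), from 7 and 61 reads. Jon65Aii was at 30 and 118 (3.93-fold, 3.54 to 4.38), Jon65Ai at 346 and 1065 (3.08-fold, 2.98 to 3.18) and Jon44E at 193 and 612 (3.18-fold, 3.04 to 3.32). Jon99Fi was at 716 and 2243 (3.13-fold, 3.06 to 3.2) and Jon99Fii at 274 and 710 (2.59-fold, 2.49 to 2.69). These 7 genes had all stood lower with uracil at 2 h. Of the trypsins, zetaTry was at 23.5 and 156 (6.61-fold, 5.91 to 7.4), iotaTry at 22.7 and 146 (6.43-fold, 5.74 to 7.22) and lambdaTry at 149 and 552 (3.7-fold, 3.53 to 3.88). At 2 h lambdaTry had been at 132 without and 106 with uracil.

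The most abundant genes again lay close together. Jon65Aiii was at 3253 without and 3274 with uracil (1.01-fold, 0.992 to 1.02), Jon65Aiv at 4144 and 4625, betaTry at 3811 and 4427 and alphaTry at 3924 and 4796. The 4 genes below a ratio of 1 were Jon25Bi (580 and 510), Jon25Bii (990 and 959), Jon74E (2033 and 1864) and deltaTry (4.09 and 1.89). For deltaTry the ratio was 0.461 (0.254 to 0.792), from 70 and 17 reads. At 2 h Jon74E had been at 2952 and 2791, and deltaTry at 20 and 14.1.

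The genes with the widest uracil ratios at 2 h lay on the other side at 16 h. Each of the 6 genes that were 2-fold lower or more at 2 h was 2-fold higher or more at 16 h. This turn was common among genes low with uracil at 2 h. Of all genes measured, 129 were 2-fold lower or more at 2 h, and 95 of the 129 were 2-fold higher or more at 16 h. The 95 are 1.11% of all genes, while the 6 are 6 of 26. Without regard to size, 20 of the 26 were below 0 at 2 h and above 0 at 16 h, against 24.4% of all genes. Of the 80 other serine proteases measured, 36 were below 0 and then above 0. Among those 80, 8 were 2-fold lower or more at 2 h and 2-fold higher or more at 16 h. Across the 26 genes Pearson's r between the log2 ratios at 2 h and 16 h was -0.74 and Spearman's rho -0.80. It was -0.93 (rho -0.91) across the 16 Jonah genes, -0.68 (rho -0.64) across the 10 trypsins and -0.03 (rho -0.02) across all genes. The ratios at 2 h and 16 h share no library, but genes of 1 library share its depth and tissue, so the coefficients are descriptions across genes.

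**Figure D2:**
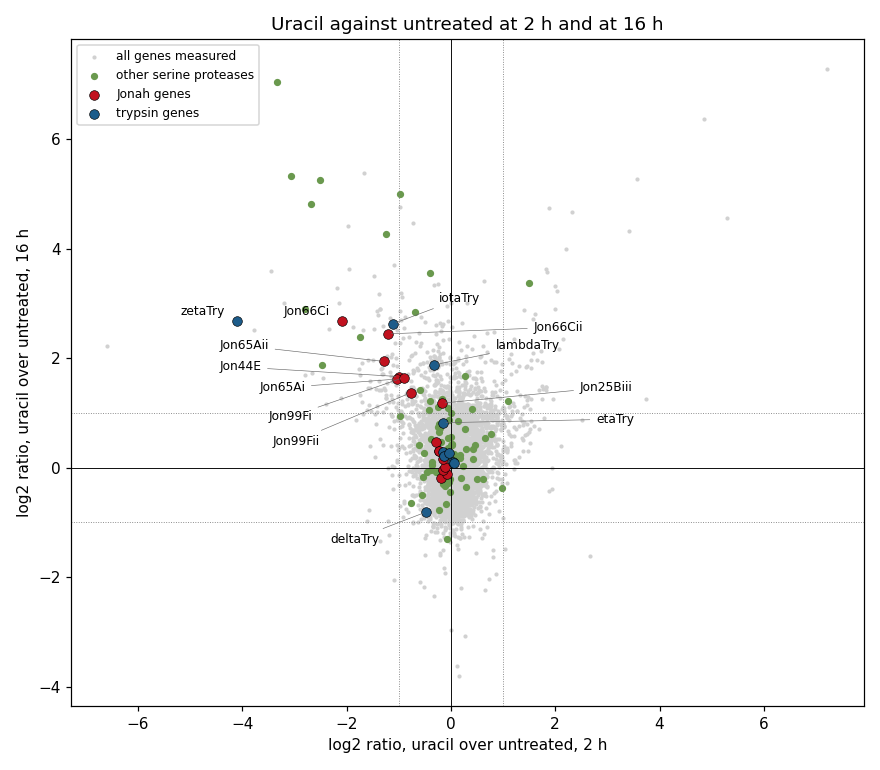
Log2 ratio of uracil over untreated at 2 h (x axis) and at 16 h (y axis) for 8560 genes (grey), 80 other serine proteases (green), 16 Jonah genes (red) and 10 trypsins (blue), with dotted lines at a 2-fold difference. The Jonah genes run from near the origin to Jon66Ci in the upper left (-2.08 at 2 h, 2.68 at 16 h), and zetaTry lies farthest left of the trypsins (-4.10 and 2.67).

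The wide ratios were mostly those of the less abundant genes. In the 13 genes of higher level (1362 to 7482 normalized counts per kb) the log2 ratio at 2 h ranged from -0.90 to 0.04, and at 16 h 2 genes, Jon25Biii and Jon99Fi, were 2-fold higher or more. In the 13 genes of lower level (4.67 to 817 per kb) 6 were 2-fold lower or more at 2 h and 9 were 2-fold higher or more at 16 h.

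Neighbours in a cluster often differed. Positions are those of Ensembl (BDGP6.54), looked up by gene ID, and the build to which the reads were mapped was not given in the sources used here. In the 65A cluster on chromosome 3L (6039155 to 6054443) Jon65Aiii ends 630 bp before Jon65Aii on the same strand. The log2 uracil ratios were -0.12 at 2 h and 0.01 at 16 h in Jon65Aiii, but -1.29 and 1.94 in Jon65Aii. Jon65Ai begins 277 bp beyond Jon65Aii, on the other strand, and had -1.03 and 1.62. The pair Jon66Ci and Jon66Cii on the same arm (8391540 to 8393649) lies on opposite strands and had ratios in the same directions at both times.

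The 25B genes lie on 1 strand of chromosome 2L (4949941 to 4955144). At 2 h they had like ratios, with Jon25Biii at 3199 without and 2848 with uracil, Jon25Bii at 3812 and 3448 and Jon25Bi at 1936 and 1697. At 16 h Jon25Biii parted from the others, at 1320 and 2989 (2.26-fold higher, 2.22 to 2.3), while Jon25Bii and Jon25Bi were below a ratio of 1.

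On chromosome 3R the genes of a cluster kept together. In the 99C cluster (29922216 to 29926189) Jon99Ci was at 2079 without and 1764 with uracil at 2 h and at 1137 and 1400 at 16 h. Jon99Cii was at 2860 and 2435, then at 1245 and 1538, and Jon99Ciii at 2426 and 1986, then at 1059 and 1465. All 3 were lower with uracil at 2 h and higher at 16 h by less than 2-fold. Jon99Fi and Jon99Fii (30487016 to 30489895) shared the wider ratios given above. Jon44E on chromosome 2R (8691448 to 8692844) and Jon74E on chromosome 3L (17548077 to 17549127) have no other member near them.

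All 11 trypsins lie in 1 cluster on chromosome 2R (11336840 to 11357537). Its widest uracil ratios were those of lambdaTry and iotaTry at its ends and of zetaTry inside. Between lambdaTry and zetaTry lies kappaTry, which was at 334 without and 327 with uracil at 2 h and at 350 and 419 at 16 h. On the other side of zetaTry lies etaTry, at 88.4 and 79.6, then at 75.1 and 133 (1.78-fold higher, 1.64 to 1.92). Further along, thetaTry was at 539 and 573 and epsilonTry at 1705 and 1821 at 16 h. The 4 genes from thetaTry to betaTry were thus all less than 2-fold apart at both times.

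**Figure D3:**
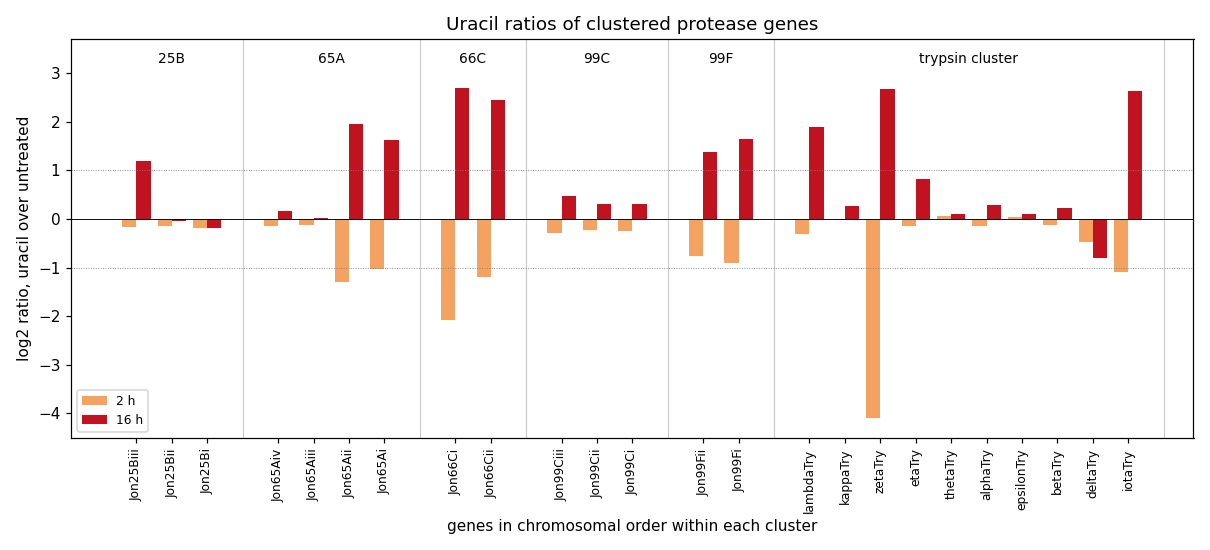
Log2 ratio of uracil over untreated at 2 h (orange bars) and at 16 h (red bars) for protease genes in chromosomal order within 6 clusters, with dotted lines at a 2-fold difference. In the 65A, 25B and trypsin clusters genes with short bars (Jon65Aiii, Jon25Bii, kappaTry) stand next to genes with long ones (Jon65Aii, Jon25Biii, zetaTry), and gammaTry, with 0 reads, is not drawn.

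Within 20 kb of a member, 44 measured genes that are not serine proteases had a median log2 uracil ratio of -0.01 at 2 h and 0.06 at 16 h. Of the 44, 2 were higher and 1 lower with uracil at 2 h by 2-fold or more, and 5 were higher and 0 lower at 16 h. Over all genes 1.5% were higher and 1.51% lower at 2 h, and 7.66% higher and 0.993% lower at 16 h. Among them PGRP-SC1a, a peptidoglycan amidase gene 16889 bp from Jon44E, was at 12.4 without and 5.2 with uracil at 2 h and at 1.75 and 15.9 at 16 h. CG6602, 17696 bp from Jon65Ai, was at 24.1 and 11.8, then at 37.4 and 186. Other neighbours, hoe1 (4.18 and 10.8, then 7.77 and 17) and mtrm (3.68 and 18.7, then 0.117 and 4.1), were 2-fold higher or more with uracil at both times. These genes were all named after their values were seen.

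The same windows held 6 other measured serine protease genes. The abundant yip7, 2980 bp from Jon65Aiv, was at 9024 without and 8177 with uracil at 2 h and at 4605 and 5339 at 16 h. CG10472, 6929 bp from Jon65Ai, was at 1608 and 1073, then at 1085 and 2917. CG10472 therefore stood lower at 2 h and 2-fold higher or more at 16 h, as Jon65Ai did. CG10477 (392 and 300, then 342 and 495), CG6462 (46.5 and 36, then 14.8 and 15.4), CG7542 (3314 and 3221, then 2140 and 1781) and CG8586 (1.78 and 1.65, then 3.04 and 4.21) were less than 2-fold apart at both times.

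Without uracil nearly all of the proteases stood lower at 16 h than at 2 h. All 16 Jonah genes were below a log2 ratio of 0 and 12 of them were 2-fold lower or more, with a median of -1.20. Of the 10 trypsins 3 were 2-fold lower or more (median -0.57, or -0.23 over genes with a mean of 10 CPM or more), and 0 genes of either family were 2-fold higher. Over all genes the median was 0.04, with 2.84% lower and 2.8% higher (5.64% in either direction). Jon66Ci had one of the widest ratios, at 180 at 2 h and 17.5 at 16 h (10.3-fold lower, 9.07 to 11.7). The trypsins lambdaTry, kappaTry, zetaTry and iotaTry stood 1.05-fold to 1.27-fold higher at 16 h.

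With uracil the genes went different ways with time. Of the 26, 10 were 2-fold higher or more at 16 h than at 2 h and 6 were 2-fold lower or more, against 9.38% and 2.9% of all genes (12.3% in either direction). The 10 were the 11 genes that stood 2-fold higher with uracil at 16 h, less Jon25Biii, which was at 2848 at 2 h and 2989 at 16 h. In iotaTry the values were 8.51 and 146 (17.2-fold higher, 13.5 to 22.1) and in lambdaTry 106 and 552 (5.23-fold, 4.87 to 5.62). The 6 lower genes were Jon25Bi, Jon25Bii, Jon65Aiii, epsilonTry, thetaTry and deltaTry. The comparisons over time use the same 4 libraries as the uracil comparisons and add no independent evidence to them.

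The order of the 4 libraries sorted the genes into kinds. In 13 of the 26 both 2 h libraries lay above both 16 h libraries, as in 25.2% of all genes: Jon25Bi, Jon25Bii, Jon65Aiii, Jon65Aiv, Jon74E and the 3 genes of 99C, and alphaTry, betaTry, deltaTry, epsilonTry and thetaTry. In 5 genes uracil at 2 h was lowest and uracil at 16 h highest: Jon65Aii, iotaTry, kappaTry, lambdaTry and zetaTry. They were 1 of the 16 Jonah genes and 4 of the 10 trypsins. Among all genes 11.2% had that order, and among the 80 other serine proteases 22 did (27.5%). For kappaTry the 2 h libraries were within counting error of each other (ratio 0.98, 0.929 to 1.03). In the other 8 the lowest library was untreated at 16 h.

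**Figure D4:**
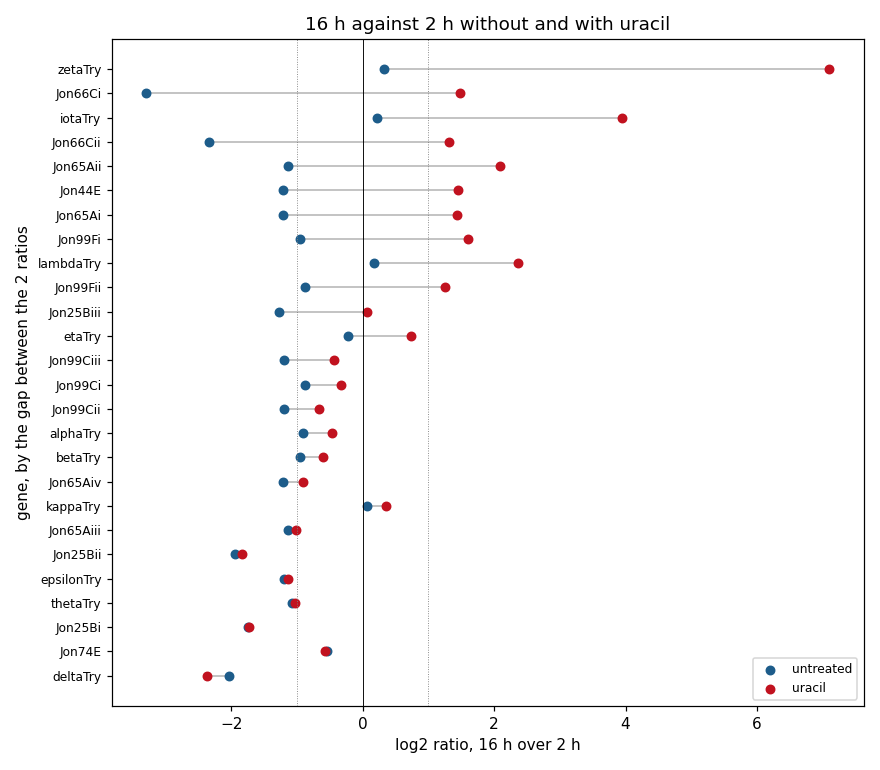
Log2 ratio of 16 h over 2 h without uracil (blue) and with uracil (red) for the 26 protease genes measured, ordered by the gap between the ratios, with dotted lines at a 2-fold difference. Near the bottom Jon25Bi, Jon74E, thetaTry and epsilonTry have both points nearly together below 0, and at the top zetaTry, Jon66Ci and iotaTry have them farthest apart.

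A change with time shared by both treatments could be tested, with limma on all 8560 genes in an additive model of time and treatment. Of the 26 proteases 4 fell from 2 h to 16 h and 0 rose, against 0.234% and 0.187% of all genes (0.421% in either direction). Over all genes that is 20 lower and 16 higher, and with CPM in place of the deposited scaling 85 lower and 222 higher, with 7 proteases lower. Jon25Bii fell by 1.89 on a log2 scale (SE 0.156, limma adjusted p = 0.0182, range over the alternatives 1.59e-14 to 0.106). Its values were 3812 and 3448 at 2 h and 990 and 959 at 16 h (untreated, then uracil). Jon25Bi fell by 1.73 (SE 0.164, limma adjusted p = 0.0183, range 3.99e-12 to 0.109).

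The other genes that fell were trypsins. By its listed reads deltaTry fell by 2.21 (SE 0.279, limma adjusted p = 0.0429, range 0.000462 to 0.0821), from 20 and 14.1 to 4.09 and 1.89. Reads that deltaTry shares with its near-identical copy gammaTry may be missing from these values. The abundant epsilonTry fell by 1.16 (SE 0.15, limma adjusted p = 0.0451, range 2.76e-05 to 0.157), from 3885 and 3993 to 1705 and 1821. In each of the 4 genes both 2 h libraries lay above both 16 h libraries. Jon65Aiii (limma adjusted p = 0.0507) and Jon65Aiv (limma adjusted p = 0.0595) did not pass. Both did pass with CPM, with a minimum mean of 10 CPM and with DESeq2, but in none of the other alternatives. At an unadjusted limma p under 0.05, 13 of the 26 were lower, as were 7.32% of all genes. On the higher side by that limit were 3 members, zetaTry, iotaTry and lambdaTry, and 741 of the 8560 genes. With edgeR and DESeq2 0 members were on that side. The fit has 1 residual degree of freedom, the interaction of time and treatment, so its error is not a spread between replicates. None of the 4 passed without the variance trend, and deltaTry and epsilonTry also failed with either other pseudocount and with edgeR.

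A change with uracil in the same direction at both times was found with limma for 0 of the 26 proteases, against 0.035% of all genes. At an unadjusted p under 0.05 this fit and DESeq2 gave 0 proteases, while edgeR and limma without the variance trend each gave 1, deltaTry on the lower side, with 0.713% of all genes lower in the trended fit. The lowest unadjusted p in the trended fit was that of deltaTry, at 0.0572 by limma (adjusted p = 0.999), and it was 0.0357 by limma without the trend (adjusted p = 0.874). In this model opposite ratios at the 2 times cancel. The gap between them, the log2 uracil ratio at 16 h minus that at 2 h, was 6.77 in zetaTry, 4.77 in Jon66Ci and 0.00 in Jon25Bi, and has no test in this design.

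Markers of other tissues and regions moved along with some of the proteases. The 4 enterocyte markers matched summed to 3115 normalized counts without uracil at 2 h, 2902 at 16 h, 2885 with uracil at 2 h and 2748 at 16 h. None of the 4 was 2-fold apart in any comparison, and none was at 0. Malpighian tubules, the excretory tubes that join the gut at the end of the midgut, had 9 markers measured, which summed to 323, 303, 179 and 784 in the same order. Of these, 5 were 2-fold lower or more with uracil at 2 h, 6 were 2-fold higher or more at 16 h, and none was at 0. Over all genes 1.51% were lower at 2 h and 7.66% higher at 16 h. The tubule sum was thus lowest with uracil at 2 h and highest with uracil at 16 h, as were zetaTry, iotaTry, lambdaTry, kappaTry and Jon65Aii. Of all genes 11.2% had that order, and of the other serine proteases measured 27.5%. In kappaTry the 2 h libraries were within counting error (ratio 0.98, 0.929 to 1.03).

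The homeobox gene cad, which encodes a transcription factor of the posterior gut, had the same lowest and highest library, at 27.1 without uracil at 2 h, 31 at 16 h, 10 with uracil at 2 h and 111 at 16 h. GATAe, which encodes a GATA factor of the midgut, was at 339, 364, 298 and 263 in that order. Among 12 regulators of the gut 1 gene, cad, was 2-fold lower or more at 2 h, and 2 genes, cad and srp, were 2-fold higher or more at 16 h. Visceral muscle markers (8 measured) summed to 1097, 1074, 1818 and 2347, higher in both uracil libraries. The part of dissected tissue or gut region in the protease ratios was not tested.

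**Figure D5:**
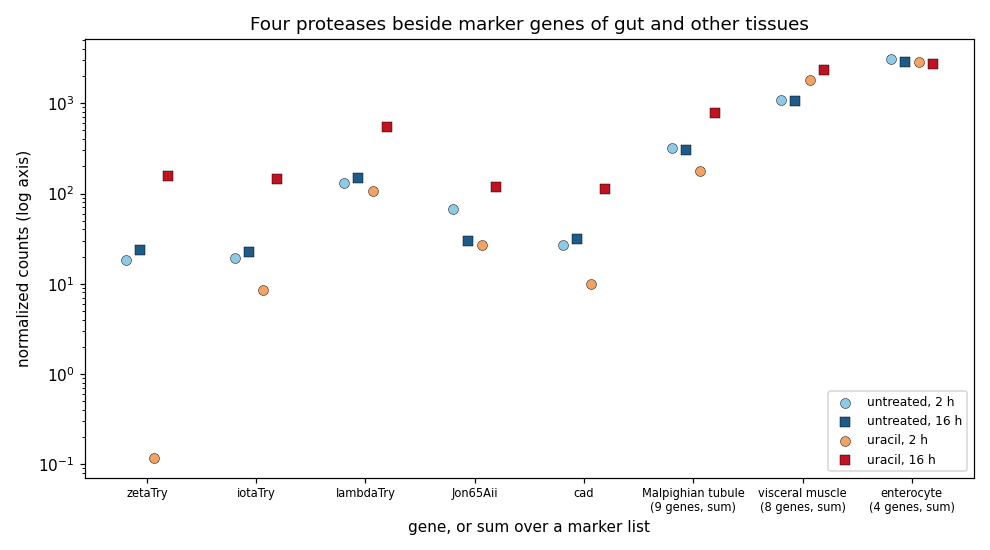
Normalized counts on a log axis for 4 proteases, for cad, and for the sums of the Malpighian tubule, visceral muscle and enterocyte markers, with 1 point per library. In zetaTry, iotaTry, lambdaTry, Jon65Aii, cad and the tubule sum uracil at 2 h is the lowest and uracil at 16 h the highest point, while the enterocyte sum lies between 2748 and 3115.

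The other marker lists went different ways. Copper cells, the acid-secreting cells of the midgut, had 5 markers. These summed to 1283 without uracil at 2 h, 1409 at 16 h, 1282 with uracil at 2 h and 1035 at 16 h. At 16 h all 5 stood lower with uracil (median log2 ratio -0.59), 1 of them (CAH1) by 2-fold or more, as did 0.993% of all genes. Hormone-secreting enteroendocrine cells had 9 markers with sums of 617 to 771. Of these 9, 1 (AstA) was 2-fold lower or more with uracil at 2 h and 3 (AstA, Dh31 and CCHa1) were 2-fold higher or more at 16 h. Over all genes these shares were 1.51% and 7.66%. The peptide hormone gene AstA was at 5.83 without uracil at 2 h, 3.1 at 16 h, 1.65 with uracil at 2 h and 29.6 at 16 h, and AstC (99.8, 93.9, 70.7 and 161) and CCHa1 (4.95, 6.13, 4.37 and 17.9) also had uracil at 2 h lowest and uracil at 16 h highest. That order was found in 11.2% of all genes. Uracil at 16 h was instead lowest in Tk (249, 221, 230 and 169), CCHa2 (274, 198, 229 and 154), pros (17.1, 19.9, 14.9 and 11.5) and NPF (83.7, 52.8, 85.9 and 52.2). Dh31 and Orcokinin were lowest without uracil at 16 h. Blood cell markers (5 matched) summed to 25 to 39.4, with He at 0 in 2 libraries. Neuron and photoreceptor markers (6) summed to 62.9 without uracil at 16 h and to 15.2 to 18.1 elsewhere, with ninaE at 0 without uracil at 2 h and Arr1 at 0 in both 2 h libraries. Female germline mRNAs (3 matched) summed to 5.96 at 2 h and 0.876 at 16 h without uracil, where pgc was at 0, and to 33.2 and 35.9 with uracil.

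Serine proteases outside these families had ratios in the same directions in part. Of 80 measured, 8 were lower and 2 higher with uracil at 2 h by 2-fold or more, and 1 lower and 21 higher at 16 h. The 8 that were lower at 2 h were all among the 21 that were higher at 16 h. Across these 80 genes r between the times was -0.67 (rho -0.32). At 16 h the 21 genes were 26.2% of the list, against 42.3% of the measured Jonah and trypsin genes, a difference that was not tested. At 16 h, though not at 2 h, the ratio farthest from 1 among all serine proteases measured was that of one of these, CG17475. CG17475 was at 10.4 without and 0.118 with uracil at 2 h and at 0.0584 and 142 at 16 h (2428-fold higher, 435 to 95986), where the untreated value is 1 read. CG31266 was at 8.5 and 0.118, then at 2.16 and 127. For CG17475, CG31266 and CG4053 the value of 0.118 with uracil at 2 h is also 1 read each.

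These genes shared the turn from low to high seen in zetaTry. CG4053 was at 6.34 and 0.118, then at 1.4 and 67.6 (48.3-fold higher at 16 h, 32.1 to 75.9). CG31265 was at 4.82 and 0, then at 0.876 and 71.5. CG31267 was at 8.88 and 4.02, then at 1.46 and 78.4. The more abundant CG11912 was at 86.6 and 11.6 at 2 h (ratio 0.134, 0.107 to 0.165), then at 48.2 and 366.

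Some counts are uncertain because genes are alike or overlap. The trypsins gammaTry and deltaTry are known as near-identical copies, and how reads that match both were counted was not given in the sources used here. No reads were listed for gammaTry in any library, which allows up to 0.38 normalized counts without and 0.354 with uracil at 2 h, and 0.175 and 0.333 at 16 h, for reads assigned to that copy. Reads of alphaTry and betaTry, also close in sequence, may likewise be split between them. Strand is not marked by the library kit, and Jon44E overlaps CG8586 by 49 bp and deltaTry overlaps CG13202 by 15 bp, each on opposite strands, so that reads in those stretches cannot be told apart.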

How the data were processed

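Per the labels' protocols, total RNA was extracted with Qiagen RNeasy and poly(A) RNA made into Illumina TruSeq libraries. Per the submitters' processing notes, cutadapt 1.0, TopHat2 2.0.5, Bowtie, HTSeq and edgeR were used; their roles were not given in the sources used here, nor were the genome build, annotation and strand setting. The authors deposited 1 signal per gene and library, named normalized counts. Dividing each library by its own step (0.1268, 0.05841, 0.1181 and 0.1109 for untreated 2 h, untreated 16 h, uracil 2 h and uracil 16 h) gave whole reads for 100% of values within 0.01 reads, and these reads were used as counts. Of 13646 lines, 118 shared 57 IDs and were summed, none of them a member. Library totals were 8500378, 16588143, 8990316 and 8841796 reads in the same order.

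Log2 ratios were taken after adding 1.02 normalized counts, over 8560 genes whose mean reached 1 CPM. Time and treatment effects were tested with limma 3.58.1 (additive, trend, Benjamini-Hochberg FDR 0.05, prior of 5.33 degrees of freedom) and, as alternatives, edgeR 4.0.16 and DESeq2 1.42.0 on the recovered reads. Scripts were tested on simulated data. Nothing in the sources used here says that samples came from separate animals. With 1 library per group, the p-values measure no spread between replicates. The error in each limma p-value is the departure of the 4 libraries from the additive model, combined with the prior. The members and gene lists were chosen with earlier results of these data known. All members were named; other serine proteases were named if within 20 kb of a member or among the 5 farthest from a ratio of 1 in either uracil comparison (mean of at least 10 CPM). Protein sequences were not used here, so the other serine proteases were taken by an SP or SPH alias in RefSeq, less aliases that belong to other proteins, a choice made after values were seen. Exon lengths are from Ensembl (BDGP6.54).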

Additional observations from a re-analysis of the deposited data

Results flagged for a closer look

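In 6 of the 26 genes the single uracil library stood at least 2-fold lower than the untreated one at 2 h and at least 2-fold higher at 16 h. Among all 8560 genes 95 did so, out of 129 that were at least 2-fold lower at 2 h. The difference between the log2 uracil ratios at 16 h and at 2 h was 6.77 for zetaTry, 4.77 for Jon66Ci, 3.73 for iotaTry, 3.64 for Jon66Cii, 3.23 for Jon65Aii and 2.65 for Jon65Ai. With 1 library per group this difference was not tested. Groups of 1 library allow no search for outlying samples.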

How the results depend on the processing

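No paired analysis was possible because each group has 1 library and the labels give no replicate numbers, and no library can be left out of a comparison of 1 against 1. A pseudocount cannot change the direction of a ratio between single libraries, but it can change that of a fitted effect. The limma uracil effect of zetaTry, which did not pass, was -0.71 on the log2 scale in the reported fit. It was -1.84 with a pseudocount 10 times lower and 0.41 with one 10 times higher. With CPM or DESeq2 size factors no member ratio moved by more than 0.16 on the log2 scale, too little to turn a 2-fold ratio. Counts of members did move. Members at least 2-fold lower with uracil at 2 h went from 6 to 4 with a pseudocount 10 times higher. Members at least 2-fold lower with time without uracil went from 15 to 13 with that pseudocount and to 12 with CPM. CPM moved the median of all genes from 0.04 to 0.18 for time without uracil and from -0.01 to 0.10 with uracil, where the trypsin median went from -0.06 to 0.06 (0.36 with a minimum of 10 CPM). The Jonah uracil median at 16 h went from 0.82 to 0.57 with a pseudocount 10 times higher and to 0.47 with a minimum of 10 CPM, and the trypsin median for time without uracil from -0.57 to -0.23 with that minimum. At 16 h, 1 member was at least 2-fold lower with uracil with a pseudocount 10 times lower, and 1 at a limit of 1.5-fold. At a limit of 3-fold, 2 members were lower with uracil at 2 h, 5 lower with time without uracil, and 5 higher and 3 lower with time with uracil. Members past the time test on the lower side numbered 2 with a pseudocount 10 times lower or higher, 7 with CPM, 0 without the trend, 2 with edgeR and 9 with DESeq2. Over all genes, those higher and lower in the time test numbered 16 and 20 in the reported fit, 7 higher with 10 times the pseudocount, 222 and 85 with CPM, 183 and 146 without a filter, 0 and 0 without the trend (747 and 523 at an unadjusted p under 0.05), 13 lower with edgeR, and 135 and 159 with DESeq2. For the uracil test, 3 genes were higher in the reported fit, 14 with CPM, 28 without a filter (1 lower), 5 with edgeR and 33 with DESeq2 (2 lower). The cause of these moves was not tested. Depth limits zetaTry, CG17475, CG31266 and CG4053 with uracil at 2 h (1 read each), CG17475 in untreated guts at 16 h (1 read) and Jon66Cii in untreated guts at 16 h (7 reads).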
